A study of Mus musculus with 12 samples.

Results

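Krt19, Pnlip, Ano3, Tmem182, Tpd52l1 and Epsti1 were examined as 6 genes whose RNA differed by a large fold between neighbouring touch territories of the newborn mouse thalamus. They were taken from 55359 counted genes, and all 6 were among the 17501 that passed the filter on low counts. The rule picked them by their fold difference between the control groups, outside the guidance, adhesion and channel families, with no numerical threshold. That control difference is therefore given as a description without a test. The tissue was the ventroposterior medial nucleus, the thalamic relay for touch from the face, dissected on the day of birth (postnatal day 0) from pools of 5 brains per library. The PMBSF territory receives input from the whisker pad and the ALBSF territory from the upper lip. Control pups (Ctrl) gave 4 libraries of each territory, and pups labelled embWPC, an abbreviation the labels do not spell out, gave 4 libraries of ALBSF. The labels used here give no strain, sex or allele for the groups, and all 3 groups share the age and dissection. The libraries are pools of bulk tissue, in which less RNA per cell and fewer cells of a type cannot be told apart.

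In the thalamus, relay neurons use glutamate and send touch signals to the barrel field of the cortex, where each whisker or patch of lip has its own place. Several of the 6 genes are better known from other tissues. Krt19 encodes a type I keratin, an intermediate filament protein of simple epithelia. Pnlip encodes pancreatic triglyceride lipase, the enzyme that splits dietary fat in the gut. Ano3 encodes a membrane protein of the anoctamin (TMEM16) family, linked in people to an inherited dystonia. Tmem182 encodes a membrane protein studied mainly in muscle, where it binds integrin beta 1. Tpd52l1 encodes a small coiled-coil protein that binds other members of the tumor protein D52 family. Epsti1 was named for its induction in epithelial cells by stroma and responds to interferon.

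The promoters are shown because 3 of the genes were higher in the lip territory of controls (Krt19, Pnlip and Ano3, here lip-side genes) and the other 3 in the whisker territory (whisker-side genes). RefSeq entries on GRCm38.p6 matched 5 of the 6 genes with 6 promoters, each reaching from 250 bases before the transcription start to 50 after it. Krt19 had no entry. Capitals mark matches on either strand to the motifs searched, which were TATAAA (the TATA box), the core of the interferon-stimulated response element, AGGTCA (a core motif of nuclear receptors), ATGCAAAT (the octamer of POU factors) and CTTTGA (the TCF/LEF core). The Pnlip promoter lies at chr19:58670115-58670414 on the plus strand, and the Ano3 promoter shown, the more downstream of its 2 entries, at chr2:110840010-110840309 on the minus strand. The Tmem182 promoter lies at chr1:40805351-40805650 and the Epsti1 promoter at chr14:77903989-77904288, both on the plus strand.
Pnlip: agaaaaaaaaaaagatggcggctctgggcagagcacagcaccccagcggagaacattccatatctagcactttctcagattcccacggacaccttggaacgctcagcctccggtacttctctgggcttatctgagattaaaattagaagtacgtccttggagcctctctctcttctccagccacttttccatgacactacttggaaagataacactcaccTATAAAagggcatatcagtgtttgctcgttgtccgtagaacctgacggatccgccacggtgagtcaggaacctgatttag
Ano3: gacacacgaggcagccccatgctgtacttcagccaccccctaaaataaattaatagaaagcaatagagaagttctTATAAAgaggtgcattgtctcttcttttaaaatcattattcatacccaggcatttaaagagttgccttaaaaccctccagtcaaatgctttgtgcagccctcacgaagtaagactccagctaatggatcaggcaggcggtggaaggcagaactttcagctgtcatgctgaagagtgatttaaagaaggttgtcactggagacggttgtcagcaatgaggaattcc
Tmem182: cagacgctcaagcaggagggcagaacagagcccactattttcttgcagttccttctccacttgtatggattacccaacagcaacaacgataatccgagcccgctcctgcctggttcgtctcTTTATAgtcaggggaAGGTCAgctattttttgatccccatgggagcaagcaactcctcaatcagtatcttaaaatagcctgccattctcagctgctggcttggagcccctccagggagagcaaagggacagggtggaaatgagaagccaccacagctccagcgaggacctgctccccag
Epsti1: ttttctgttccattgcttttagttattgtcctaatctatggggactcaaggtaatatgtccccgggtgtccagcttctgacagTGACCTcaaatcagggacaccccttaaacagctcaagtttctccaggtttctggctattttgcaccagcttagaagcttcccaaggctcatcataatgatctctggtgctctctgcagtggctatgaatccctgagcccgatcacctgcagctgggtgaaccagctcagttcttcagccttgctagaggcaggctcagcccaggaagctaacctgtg
In Pnlip the TATA box began 30 bases before the start, the place where such a box usually sits, and in Ano3 it began 175 bases before. Tmem182 held the box on the opposite strand (TTTATA) 129 bases before its start and the nuclear receptor motif 114 bases before. Epsti1 held the nuclear receptor motif on the opposite strand (TGACCT) 167 bases before its start. The Tpd52l1 promoter and the other Ano3 promoter held none of the 5 motifs. Among 32851 mouse promoters of the same length, 13.6% held the TATA box, 16.3% the nuclear receptor motif, 3.44% the interferon element, 1.74% the octamer and 16.0% the TCF/LEF core. The TATA box was in both lip-side genes with an entry, in 1 of the 2 promoters of Ano3, and no motif was in all 3 whisker-side genes. A match is a run of letters and not a measured binding site.

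The 12 libraries held between 28457046 and 34512840 counts each, and all Ctrl PMBSF totals (31921767 or more) were above all Ctrl ALBSF totals (31850727 or less). Levels are given as CPM, counts relative to a library total scaled by TMM, a factor that balances libraries of different make-up. All 9 relay neuron markers passed the count filter, and Slc17a6, the glutamate transporter of relay neurons, lay between 336 and 430 CPM in all 12 libraries. The 9 summed to 2540 to 2960 CPM in Ctrl ALBSF and 2340 to 2660 in Ctrl PMBSF, and 3 of them were called between these groups, against 1.62% of all genes. Among the control libraries, 2 stood apart. The second Ctrl ALBSF pool had 98.6 CPM of Ttr, the transthyretin gene of choroid plexus, against 2.48 to 22.0 in the other 11 libraries, and no count of the Y-linked Ddx3y. The second Ctrl PMBSF pool had 23.7 CPM of Col3a1, a collagen of meningeal fibroblasts, and 5.58 of Gfap, an astrocyte filament, against at most 8.53 and 1.26 elsewhere. Pools differed in sex: Xist, the RNA of the inactive X chromosome, was 68.6 CPM in the second Ctrl ALBSF pool but at most 0.112 in Ctrl ALBSF pool 3 and Ctrl PMBSF pools 2 and 3, and both Xist and Ddx3y were well above 0 in the other 8. Habenular markers, of which 2 of 5 passed the filter, summed to 21.9 to 31.2 CPM in Ctrl ALBSF, 12.1 to 17.1 in Ctrl PMBSF and 20.7 to 22.5 in embWPC ALBSF. The control groups thus did not overlap, and 1 of the 2 tested markers was called between them, against 1.62% of all genes. Markers of meningeal fibroblasts, all 14 tested, summed to 46.0 to 84.1 CPM, 64.4 to 127 and 28.1 to 80.5 in the same order. The part of these markers and of sex in the results below was not tested beyond a fit with the meningeal level as a covariate and fits without single libraries or without both second control pools.

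In the control tissue, Krt19, Pnlip and Ano3 were higher in the lip territory, and Tmem182, Tpd52l1 and Epsti1 were higher in the whisker territory. For each of the 6 genes the 4 libraries of one territory lay wholly above those of the other, as they did for 8.27% of all genes tested. The rule used this contrast, so nothing is read from that count. By the size of their log2 difference the genes stood at places 1 (Krt19), 24 (Ano3), 33 (Tmem182), 35 (Pnlip), 63 (Tpd52l1) and 76 (Epsti1) of the 17501. Among the 284 genes called in this contrast (1.62%), 142 (0.811%) were higher and 142 (0.811%) lower in PMBSF.

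**Figure D1:**
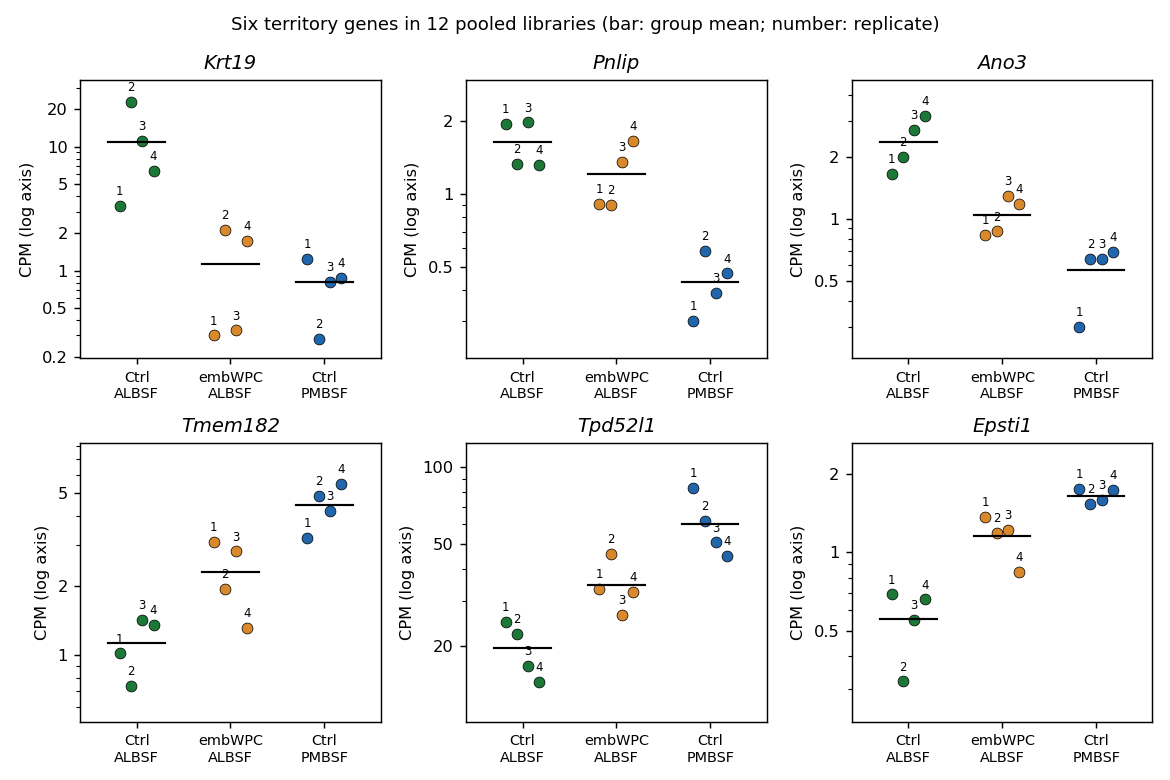
Expression of each gene in CPM on a log axis, in 4 libraries of Ctrl ALBSF, embWPC ALBSF and Ctrl PMBSF. Each point is a library with its replicate number, and each bar is the group mean. The control groups do not overlap for any of the 6 genes, and the 4 embWPC libraries lie between them without touching either group for Ano3 and Epsti1.

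Krt19 had the largest difference and the widest spread. Its 4 Ctrl ALBSF libraries held 3.34, 23.12, 11.09 and 6.41 CPM, from 101 to 658 counts. Its Ctrl PMBSF libraries held 1.24, 0.28, 0.81 and 0.88 CPM, from 9 to 46 counts. The lowest lip library was thus still above the highest whisker library, while the lip libraries differed 6.92-fold among themselves. The means were 11.0 ± 8.7 CPM (SD, n = 4) and 0.802 ± 0.40 CPM (SD, n = 4), a log2 difference (PMBSF minus ALBSF) of -3.76 ± 0.66 (SE), or 13.5-fold lower in PMBSF. The SD among the lip libraries was 14.8 times what counting error alone gives. The highest value came from the second Ctrl ALBSF pool, with its high Ttr level and no Ddx3y. The lowest came from the second Ctrl PMBSF pool, which had the next highest Ttr level, 22.0 CPM. Without the second Ctrl ALBSF pool the log2 difference was -3.10, and without both second control pools it was -2.82.

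Krt8, a usual filament partner of Krt19 in simple epithelia, and Krt18, another type I keratin of such epithelia, were nearly absent. Krt8 had at most 0.0351 CPM in any library, and 10 of the 12 libraries had no count of it. Krt18 had 0.198, 0.632, 0.104 and 0.0661 CPM in the Ctrl ALBSF libraries, at most 0.123 in Ctrl PMBSF and at most 0.0335 in embWPC ALBSF, and its highest level was in the same pool as that of Krt19. The 8 epithelial markers together, of which 3 passed the filter, summed to 2.68 to 4.78 CPM in Ctrl ALBSF, 3.08 to 5.78 in Ctrl PMBSF and 2.64 to 5.23 in embWPC ALBSF. Their summed level overlapped between all 3 groups, while that of Krt19 did not overlap between the control groups.

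Pnlip was low everywhere and lower still in the whisker territory. Ctrl ALBSF libraries held 1.95, 1.33, 1.97 and 1.32 CPM, and Ctrl PMBSF libraries 0.30, 0.58, 0.39 and 0.47 CPM, from 11 to 19 counts. The means were 1.64 ± 0.37 and 0.435 ± 0.12 CPM (SD, n = 4 each), a log2 difference of -1.92 ± 0.30 (SE), or 3.77-fold. Of 7 marker genes of pancreatic acinar cells, the cells that make this lipase for digestion, 1 passed the count filter and 2 had no count in any library. Their sum did not exceed 1.12 CPM in any library.

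Ano3 also favoured the lip territory. Ctrl ALBSF libraries held 1.65, 2.00, 2.7 and 3.17 CPM, and Ctrl PMBSF libraries 0.30, 0.64, 0.64 and 0.69 CPM. The first whisker pool was the low one, with 11 counts against up to 23 in the others. The means of 2.38 ± 0.68 and 0.569 ± 0.18 CPM (SD, n = 4 each) gave a log2 difference of -2.07 ± 0.30 (SE), or 4.19-fold.

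Tmem182 was the most different of the 3 genes higher in the whisker territory. Ctrl ALBSF libraries held 1.02, 0.74, 1.42 and 1.35 CPM, and Ctrl PMBSF libraries 3.21, 4.88, 4.19 and 5.49 CPM. The groups were far apart, the lowest whisker library having more than any lip library. The means were 1.13 ± 0.32 and 4.44 ± 0.98 CPM (SD, n = 4 each), a log2 difference of 1.96 ± 0.28 (SE), or 3.90-fold. The 9 skeletal muscle markers, 4 of them above the filter, summed to 18.4 to 23.1 CPM in Ctrl ALBSF and 20.3 to 25.5 in Ctrl PMBSF, which overlap.

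Tpd52l1 was the most abundant of the 6 genes in both territories. Ctrl ALBSF libraries held 24.86, 22.34, 16.69 and 14.44 CPM, and Ctrl PMBSF libraries 82.75, 61.38, 50.74 and 44.84 CPM. Its means of 19.6 ± 4.8 and 59.9 ± 17.0 CPM (SD, n = 4 each) gave a log2 difference of 1.61 ± 0.21 (SE), or 3.06-fold. Per kilobase of exon, Tpd52l1 had 12.4 CPM in Ctrl ALBSF and 37.8 in Ctrl PMBSF. On that scale Krt19 came next in Ctrl ALBSF with 5.92, while Pnlip, Ano3, Epsti1 and Tmem182 had 0.696, 0.318, 0.227 and 0.165. In Ctrl PMBSF the order after Tpd52l1 was Epsti1 with 0.674, Tmem182 with 0.646, Krt19 with 0.432, Pnlip with 0.184 and Ano3 with 0.0759 CPM per kilobase.

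Epsti1 was low in the lip territory and steady in the whisker territory. Ctrl ALBSF libraries held 0.69, 0.32, 0.55 and 0.66 CPM, from 9 to 21 counts, and Ctrl PMBSF libraries 1.75, 1.53, 1.59 and 1.73 CPM, from 50 to 65 counts. The SD among the whisker libraries was 0.462 times that of counting error alone, so no spread beyond counting was detectable there. The means of 0.556 ± 0.17 and 1.65 ± 0.11 CPM (SD, n = 4 each) gave a log2 difference of 1.56 ± 0.26 (SE), or 2.95-fold.

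Control libraries with the same number deviated together across all genes, so the difference can also be read within each number. Number 2 is an exception in sex, joining a Ctrl ALBSF pool with no Ddx3y to a Ctrl PMBSF pool with 0.0613 CPM of Xist, so these 2 are not tissue of the same 5 pups, and each SD is also given without it. For Tpd52l1 the 4 log2 differences were 1.73, 1.46, 1.60 and 1.63, with an SD of 0.11 against 0.53 for unpaired libraries of the same spread (0.07 against 0.62 without number 2). For Ano3 they were -2.26, -1.55, -1.97 and -2.10, with an SD of 0.30 against 0.65 (0.14 against 0.76 without number 2). In these 2 genes a library that was high for its territory had a partner that was high too. Krt19 had differences of -1.38, -6.10, -3.68 and -2.78, the largest from number 2, and an SD of 1.98 against 1.44 unpaired (1.16 against 0.91 without number 2). Pnlip ranged from -2.49 to -1.12, with an SD of 0.65 against 0.47 unpaired (0.57 against 0.43 without number 2). Tmem182 ranged from 1.52 to 2.63, with 0.51 against 0.52 (0.24 against 0.45 without number 2). Epsti1 ranged from 1.26 to 2.08, with 0.38 against 0.47 (0.09 against 0.17 without number 2). For Krt19 and Pnlip the paired SD was thus the larger one.

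Ano3 and Tpd52l1 ran partly opposite to each other among libraries of the same group, a pattern noticed after the values were seen. In both control groups the library with the most Tpd52l1 had the least Ano3, and the library with the least Tpd52l1 had the most Ano3. In Ctrl PMBSF, however, pools 2, 3 and 4 had 21, 23 and 22 counts of Ano3, too alike to be put in order. In embWPC ALBSF the library with the least Tpd52l1 (26.39 CPM) had the most Ano3 (1.29 CPM). The embWPC library with the most Tpd52l1 (45.67 CPM) had 0.87 CPM of Ano3, and the least Ano3, 0.84 CPM, was in another. Within groups the log2 ratio of the 2 genes had an SD of 0.75, where unrelated genes of their spread would have 0.55. Tmem182 and Epsti1 instead moved together, with a within-group SD of 0.33 against 0.54 if unrelated. Pnlip and Ano3 had 0.40 against 0.55, and Krt19 with Ano3 1.28 against 1.23. These are descriptions of 12 libraries that share their scaling, and some of the control libraries their number.

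**Figure D2:**
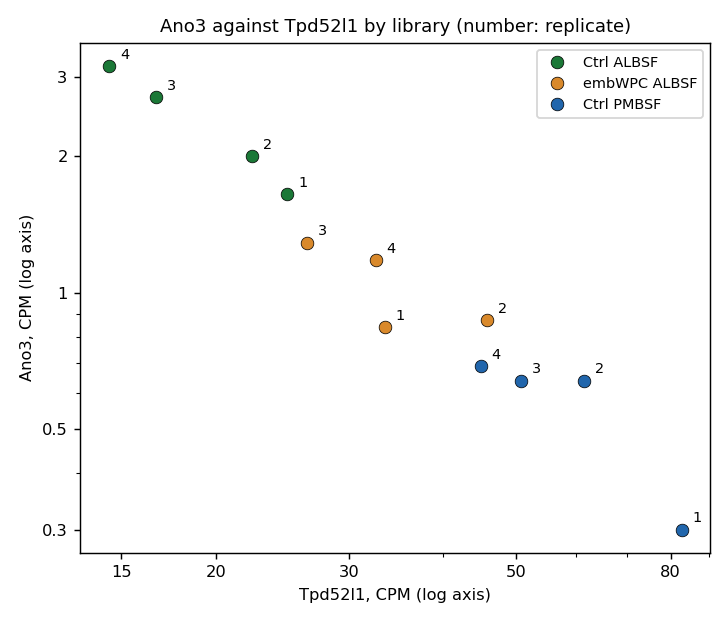
Ano3 against Tpd52l1 in the 12 libraries, both in CPM on log axes, with the replicate number beside each point. Within Ctrl ALBSF, Tpd52l1 runs from 24.86 CPM in library 1 to 14.44 in library 4 while Ano3 runs from 1.65 to 3.17, and the embWPC libraries lie between the control groups in Ano3.

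Comparing embWPC ALBSF with Ctrl ALBSF asks how the lip territory differs in embWPC pups. No gene of the 6 was called at an adjusted p under 0.05 by edgeR's quasi-likelihood test, in a contrast that called 11 of all genes (0.0629%), 3 higher and 8 lower. Unadjusted p lay under 0.05 for 5 of the 6, all but Pnlip, as for 9.22% of all genes. The contrast shares its 4 Ctrl ALBSF libraries with the one that picked the genes, so the 2 contrasts are not independent. That choice by itself favours a difference here, so nothing is read from how many of the 6 pass a threshold or do not overlap. DESeq2 called 4 of the 6 (Krt19, Ano3, Tpd52l1 and Epsti1), and edgeR without the count filter called 2 (Krt19 and Tpd52l1). The embWPC libraries and the Ctrl ALBSF libraries did not overlap for Krt19, Ano3, Tpd52l1 and Epsti1, as for 5.75% of all genes. With libraries scaled by their totals alone, Tmem182 took the place of Tpd52l1 in that list.

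Krt19 in the embWPC libraries was 0.30, 2.13, 0.33 and 1.73 CPM, from 9 to 66 counts. All 4 lay below the lowest Ctrl ALBSF library, and they fell into a low pair and a higher pair. The mean of 1.12 ± 0.95 CPM (SD, n = 4) was 9.59-fold below that of Ctrl ALBSF, a log2 difference of -3.26 ± 0.63 (SE) with a 95% interval from -4.62 to -1.90. The adjusted p from edgeR was 0.0707, and the two-sided exact permutation test of log2 CPM gave 0.0286, the smallest value that 4 against 4 libraries allow. Leaving out the second Ctrl ALBSF pool moved the difference to -2.61 with an adjusted p of 0.214, and leaving out the first Ctrl ALBSF pool moved it to -3.56 with an adjusted p of 0.0323. The summed choroid plexus markers, 4 of 7 above the filter, ran from 11.8 to 111 CPM in Ctrl ALBSF and from 10.7 to 16.1 in embWPC ALBSF. In Ctrl PMBSF, where Krt19 was also low, they ran from 13.3 to 31.9 CPM. Ttr, one of these markers, had 98.6 CPM in the second Ctrl ALBSF pool and 2.48 to 3.73 in the other pools of that group. None of the 4 tested markers was called in any contrast.

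Pnlip stayed within the range of the lip controls in part, at 0.91, 0.90, 1.36 and 1.65 CPM in embWPC ALBSF. The higher pair of these lay inside the Ctrl ALBSF range and the lower pair beneath it. The log2 difference was -0.44 ± 0.27 (SE), with a 95% interval from -1.02 to 0.14 and an adjusted p of 0.654. A drop of 1.02 or a rise of 0.14 on the log2 scale is within that interval. Ano3 was 0.84, 0.87, 1.29 and 1.18 CPM in embWPC ALBSF, all below the 1.65 CPM of the lowest lip control. Its mean of 1.04 ± 0.22 CPM (SD, n = 4) gave a log2 difference of -1.18 ± 0.28 (SE; interval -1.78 to -0.58), or 2.27-fold lower, with an adjusted p of 0.139.

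Of the genes higher in the whisker territory, Tmem182 was 3.08, 1.94, 2.81 and 1.31 CPM in embWPC ALBSF. Its lowest library lay inside the lip control range and the other 3 above it. The log2 difference was 1.00 ± 0.29 (SE; interval 0.38 to 1.62) with an adjusted p of 0.261. Tpd52l1 was 33.49, 45.67, 26.39 and 32.56 CPM, a mean of 34.5 ± 8.1 (SD, n = 4) and 1.76-fold above the lip controls. Its lowest library lay just above the highest lip control, at 24.86 CPM. The log2 difference was 0.82 ± 0.21 (SE; interval 0.36 to 1.27) with an adjusted p of 0.179. Epsti1 was 1.37, 1.19, 1.22 and 0.84 CPM, all above the lip controls. Its mean of 1.16 ± 0.23 CPM (SD, n = 4) gave a log2 difference of 1.04 ± 0.26 (SE; interval 0.48 to 1.60), or 2.06-fold, with an adjusted p of 0.166.

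**Figure D3:**
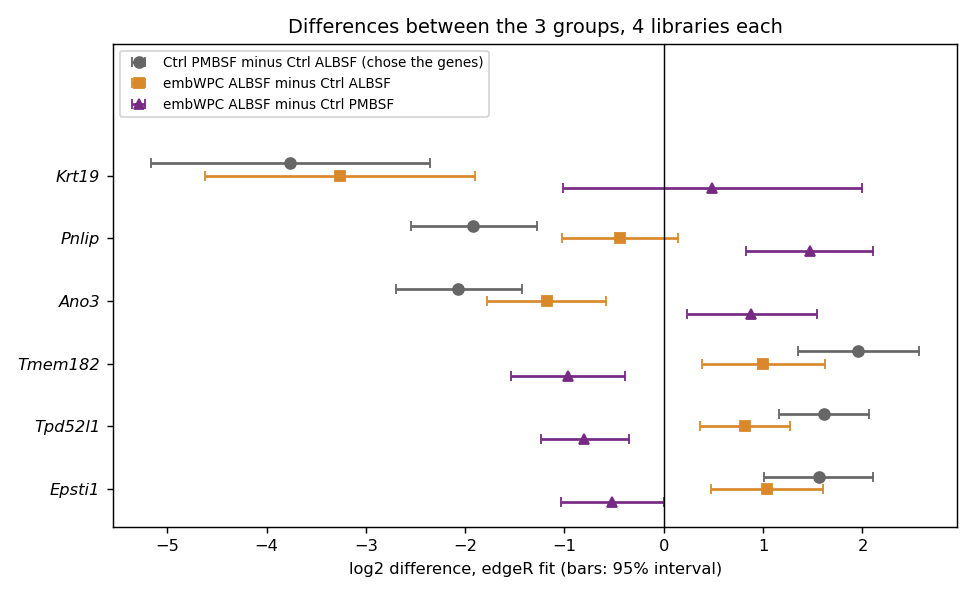
Log2 differences from the edgeR fit for the 6 genes in the 3 contrasts of 4 against 4 libraries, with 95% intervals as bars and a line at 0. The control contrast chose the genes and is a description. Against Ctrl ALBSF only the interval of Pnlip crosses 0. Against Ctrl PMBSF only that of Krt19 does, from -1.01 to 2.00, and that of Epsti1 ends just under 0.

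Comparing embWPC ALBSF with Ctrl PMBSF asks how far the lip territory of embWPC pups stood from the whisker territory of controls. None of the 6 genes was called by edgeR, in a contrast that called 1 gene of all tested (0.00571%). Unadjusted p lay under 0.05 for 5 of the 6, all but Krt19, as for 9.47% of all genes. DESeq2 called 2 (Pnlip and Tpd52l1), and edgeR without the count filter called the same 2. This contrast shares the Ctrl PMBSF libraries with the one that picked the genes. The choice again favours a difference, so nothing is read from how many of the 6 pass a threshold or do not overlap. The groups did not overlap for Pnlip, Ano3, Tmem182 and Epsti1, against 4.73% of all genes, and with scaling by library totals alone Tpd52l1 joined them.

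Krt19 had the smallest and least certain difference from the whisker controls, 0.49 ± 0.70 on the log2 scale (SE), with an interval from -1.01 to 2.00 and an adjusted p of 0.858. Its libraries overlapped, and the sign changed to -0.37 with the meningeal level as a covariate, so the data show neither a similar level nor a different one. Pnlip had the largest difference, 1.47 ± 0.30 (SE; interval 0.83 to 2.11), with 2.78-fold more in embWPC ALBSF and an adjusted p of 0.240. Every embWPC library, at 0.90 CPM or more, lay above every whisker control, at 0.58 CPM or less. Ano3 differed by 0.88 ± 0.31 (SE; interval 0.23 to 1.54) with an adjusted p of 0.407, and by 1.47 with the meningeal covariate (adjusted p 0.290).

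Tmem182 was lower than in the whisker controls by -0.96 ± 0.27 on the log2 scale (SE; interval -1.54 to -0.39), with an adjusted p of 0.326, and by -0.49 with the meningeal covariate (adjusted p 0.681). Tpd52l1 differed by -0.80 ± 0.21 (SE; interval -1.24 to -0.35), with an adjusted p of 0.298, and its libraries overlapped by the one embWPC pool at 45.67 CPM. Epsti1 differed by -0.52 ± 0.24 (SE), with an interval whose upper end lay just under 0 and an adjusted p of 0.526. The genes thus stood at different distances from the 2 control groups: Krt19 differed by -3.26 from the lip controls and 0.49 from the whisker controls, and Pnlip by -0.44 and 1.47. Whether the genes differ from each other in this was not tested. The 3 groups were wholly apart, with embWPC in the middle, for Ano3 and Epsti1, as for 39 of all genes tested (0.223%). The genes were chosen on the distance between the control groups, which this count needs, so nothing is read from it. With scaling by library totals alone this held for 3 of the 6 genes and 28 of all.

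In the fit by group, which does not pair the control libraries, 82 relatives of the 6 genes were tested. Of these, 2 were called between the control territories (2.44%), near the 1.62% of all genes. Another 0.05 threshold, on the unadjusted p, was passed by 8 (9.76%, against 11.8% of all genes). These shares say nothing particular about the relatives, and the lists below are described by their values. Of 34 other keratins and intermediate filament genes, 20 were tested and none was called in any contrast by edgeR or by DESeq2. Their median log2 difference between the control territories was 0.07, against 0.00 for all genes, and 4 had an unadjusted p under 0.05, as had 11.8% of all genes. Ina (alpha-internexin) and Nefl (neurofilament light chain), the neuronal filaments with the highest levels, differed by 0.11 ± 0.11 and -0.20 ± 0.08 (SE). Of 9 other anoctamins 7 were tested and none was called between the control territories, with a range from -0.24 to 0.01, as for all but 1.62% of all genes. An unadjusted p under 0.05 stood for 1 of them, as for 11.8% of all genes. Ano8 and Ano10, the most abundant, differed by -0.03 ± 0.08 and 0.01 ± 0.11 (SE).

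Among 16 other genes listed with the lipases 10 were tested, and 1 was called lower in Ctrl PMBSF, as were 0.811% of all genes. This was Mgll, the monoglyceride lipase that breaks down the endocannabinoid 2-AG. Its Ctrl ALBSF libraries held 38.9, 39.2, 47.7 and 41.7 CPM and its Ctrl PMBSF libraries 35.1, 23.4, 24.9 and 24.1 CPM, without overlap. Its log2 difference of -0.64 ± 0.13 (SE) had an adjusted p of 0.0199 by edgeR, and the call held in 14 of 21 alternatives, with adjusted p up to 0.192. It was lost without Ctrl ALBSF pool 3 or 4, without Ctrl PMBSF pool 2, 3 or 4, without both second pools and with the meningeal covariate. Lipa, the lysosomal acid lipase, differed by 0.17 ± 0.15 (SE). The list's median was -0.15 against 0.00 for all genes.

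The list for Tmem182 held 19 other genes, which were tetraspan genes related to claudins and the integrin Itgb1. The 15 of them tested had no call by edgeR or DESeq2, no unadjusted p under 0.05 between the control territories and a median of -0.08. Lhfpl6 differed by 0.11 ± 0.08 (SE), and Itgb1, the integrin that Tmem182 binds and which was listed as its partner, by -0.08 ± 0.08. All 4 relatives and partners of Tpd52l1 were tested, and none was called by edgeR or DESeq2 or had an unadjusted p under 0.05 in any contrast. Tpd52, at 81.1 ± 9.2 CPM (SD, n = 4) in Ctrl ALBSF and 82.6 ± 8.1 in Ctrl PMBSF, and Tpd52l2, at 61.2 ± 1.6 and 63.7 ± 1.1, were close in level between the territories.

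Of 36 other interferon-stimulated genes 26 were tested, and 1 was called higher in Ctrl PMBSF, as were 0.811% of all genes. This was Ifit2, an interferon-induced protein with tetratricopeptide repeats. Its libraries held 23.1, 20.3, 20.9 and 20.8 CPM in Ctrl ALBSF, 32.1, 32.0, 28.8 and 32.3 in Ctrl PMBSF, and 26.7, 25.8, 32.9 and 31.4 in embWPC ALBSF. The control groups did not overlap, and the log2 difference of 0.56 ± 0.09 (SE) had an adjusted p of 0.00471 by edgeR, with calls in 20 of 21 alternatives. Without both second control pools the adjusted p was 0.0601. B2m, the light chain of MHC class I, differed by -0.21 ± 0.14 (SE), and the list's median was -0.03. In the embWPC contrasts edgeR called no gene of the 6 lists. The unadjusted p lay under 0.05 for 9 of the 82 relatives in each, against 9.22% of all genes in the contrast with Ctrl ALBSF and 9.47% in that with Ctrl PMBSF. DESeq2 called 1 anoctamin (Ano5, lower), Mgll (lower) and Ifit2 (higher) in embWPC ALBSF against Ctrl ALBSF, and Lipg besides Mgll between the control territories. Ano5 and Lipg are named because DESeq2 called them and the edgeR fit did not.

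**Figure D4:**
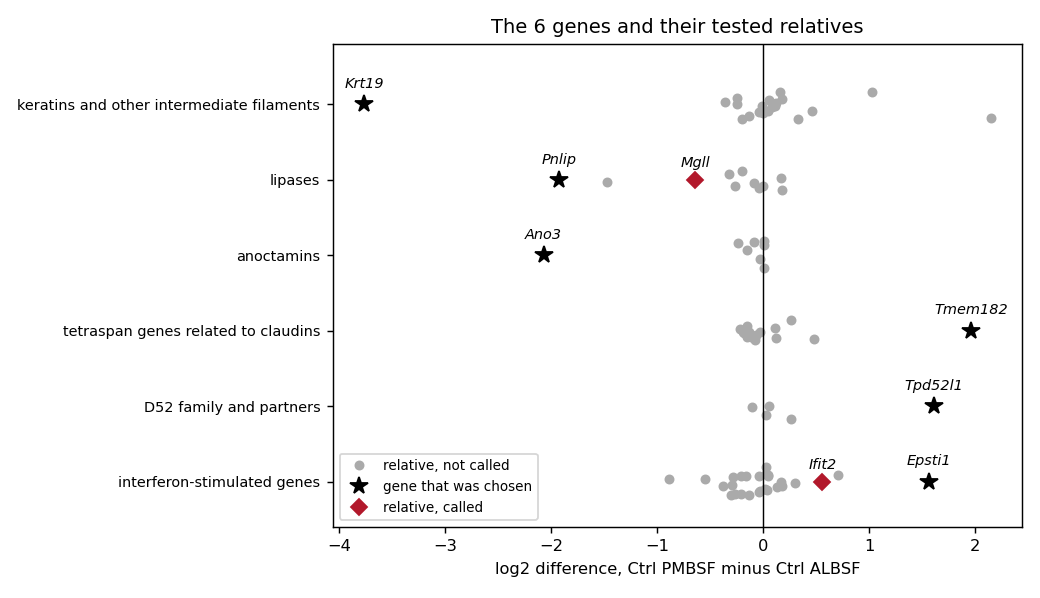
Log2 difference (Ctrl PMBSF minus Ctrl ALBSF, edgeR fit) of each of the 6 chosen genes (stars) and of the tested relatives in its list (points), with called relatives as red diamonds. The stars were chosen for this difference. Mgll at -0.64 and Ifit2 at 0.56 are the called relatives.

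The 6 genes lie on different chromosomes. On GRCm39, with the GENCODE M39 annotation, Krt19 (ENSMUSG00000020911) spans chr11:100031636-100039491 on the minus strand and Pnlip (ENSMUSG00000046008) chr19:58640831-58670288 on the plus strand. Ano3 (ENSMUSG00000074968) spans chr2:110485546-110781268 on the minus strand, and Tmem182 (ENSMUSG00000079588) chr1:40844497-40899205 on the plus strand. Tpd52l1 (ENSMUSG00000000296) spans chr10:31208364-31322204 on the minus strand, and Epsti1 (ENSMUSG00000022014) chr14:78112017-78240097 on the plus strand. Of the 36 nearest tested neighbours, 3 on each side of each gene, 1 was called between the control territories, against 1.62% of all genes. It was Fibin, a secreted protein gene 292.0 kb from Ano3, at 1.26 CPM in Ctrl ALBSF and 0.464 in Ctrl PMBSF, with a log2 difference of -1.44 ± 0.33 (SE). Its adjusted p was 0.0448 and the call held in 9 of 21 alternatives. It was lost when the 2 groups were fitted alone, with the meningeal covariate and without any 1 of 10 libraries, the second control pools being the exceptions. In the embWPC contrasts edgeR called no neighbour, and DESeq2 called Fibin, lower than in Ctrl ALBSF.

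Muc15 lies inside Ano3 on the opposite strand and shares 61 exonic bases with it. The strand setting of the counting is not stated, so reads in those bases cannot be assigned to one gene. Muc15 had 11.5, 13.2 and 13.3 CPM in Ctrl ALBSF, Ctrl PMBSF and embWPC ALBSF, with a control log2 difference of 0.20 and an adjusted p of 0.645. Dnajc15 overlaps the start of Epsti1 on the opposite strand with no shared exonic base, and its control difference was 0.16. Inside Tpd52l1 lie Gm48092 and Supt4b on the same strand and Gm48093 and Gm48094 on the opposite strand. They share no exonic base with it, had group means of at most 0.208 CPM and did not pass the count filter.

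Genes with the most similar pattern were ranked by the SD, over the 12 libraries, of their log2 ratio to each gene. Ranked were tested genes of at least 1 CPM on average, without the chosen genes themselves, pseudogenes and genes with only a Gm or Rik name. Nearest to Krt19 were Cdh9 (a type II cadherin) at 0.96, Cntn3 at 1.21 and Cidea at 1.25, so no ranked gene followed it closely. Nearest to Pnlip were Adgrl2 (a latrophilin) at 0.41, Rorb at 0.42 and Cnih3 at 0.44. Nearest to Ano3 were Plxna2 (a plexin) at 0.29, Phactr1 at 0.40 and Nr2f2 at 0.43. These lip-side genes span a wide range of levels, Adgrl2 having 171 CPM in Ctrl ALBSF and Cdh9 3.20.

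Among the whisker-side genes, Tpd52l1 had the closest match of all those ranked, Angpt2 (angiopoietin 2) at 0.22, followed by Gadd45g at 0.29 and Lgr5 at 0.30. Angpt2 had 12.7, 30.5 and 19.6 CPM in Ctrl ALBSF, Ctrl PMBSF and embWPC ALBSF. Endothelial markers, all 6 tested, summed to 85.7 to 102 CPM in Ctrl ALBSF, 72.5 to 114 in Ctrl PMBSF and 92.6 to 96.4 in embWPC ALBSF, with overlap between the groups. Nearest to Tmem182 were Tnnt1 (a slow muscle troponin) at 0.35, Ppp1r17 at 0.44 and Cdkn1c at 0.46, while Epsti1, left out of the ranking, stood at 0.37. Nearest to Epsti1 were Ebf1 at 0.30, Gpc5 at 0.33 and Hs6st2 at 0.34. All 18 of these genes were called between the control territories. Because likeness was measured over the same 12 libraries, that count follows from the ranking.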

How the data were processed

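Poly-A RNA was sequenced from 12 pooled libraries. The authors deposited raw counts per Ensembl gene and library. Per the submitters' processing notes and the series design, the tools were featureCounts of Subread 2.0.1 for counting, STAR 2.7.9a for alignment to GRCm39, SAMtools 1.15 and, for read quality, FastQC 0.11.9. The notes also list mm10 and DESeq2 1.32. Strand, pairing and multi-mapping settings are not given in the sources used here.

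The members and gene lists were chosen with earlier results of these data known. Names were given to all 6 genes, the 2 most abundant and any called relatives of each list, called or overlapping neighbours, the 3 genes of most similar pattern, and Slc17a6, Gad2, Col3a1, Ttr, Krt8 and Krt18. Xist, Ddx3y, Gfap, Ano5 and Lipg were added after their values were seen. Gad2 lay between 0.958 and 8.36 CPM and Col3a1 between 1.60 and 23.7 CPM. Symbols came from GENCODE M39, which held 54749 of the 55359 genes. No 2 libraries were duplicates: over 66 pairs, chi-square divided by its degrees of freedom was 12.6 or more.

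All 12 libraries were fitted in R 4.3.3 with edgeR 4.0.16 (quasi-likelihood, group only, TMM, filterByExpr), with Benjamini-Hochberg adjustment over 17501 genes and calls at an adjusted p under 0.05. Log2 CPM values used a prior count of 2. The script was tested on simulated data. Intervals are at 95%. Exact permutation tests were two-sided. Alternatives were DESeq2 1.42.0, limma 3.58.1 (voom with quality weights), other size factors, no count filter, the 2 groups alone, a replicate block, a meningeal covariate, each library left out, and prior counts of 0.5 and 5. Control libraries with the same number correlated in their deviations (r from 0.198 to 0.396, each best with its own number), so the numbers were taken to pair the controls, although the second pair differs in sex. The embWPC numbers do not (r from -0.147 to 0.051). The labels do not say that pools of different groups came from separate litters, and p-values measure the spread between these pools.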

Additional observations from a re-analysis of the deposited data

Results flagged for a closer look

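Ano3 in Ctrl PMBSF had 1 library, the first pool, far below the other 3, at 0.297 CPM against up to 0.690. Its gap to the nearest library was 0.88 of the group's range. It was the single such case among 18 combinations of gene and group, and chance flags about 1 in 20. The same pool had the most Tpd52l1 of all libraries, at 82.75 CPM.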

How the results depend on the processing

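The 6 control differences kept their sign in 138 of 138 alternatives. Of 126 alternatives with a test against Ctrl ALBSF, 115 kept sign and side of the threshold, and 11 had a p under it. Those 11 include the exact permutation tests of Krt19, Ano3, Tpd52l1 and Epsti1. Their p of 0.0286 was not adjusted over genes, so these did not cross the threshold for an adjusted p. Against Ctrl PMBSF, 117 of 126 kept sign and side, and 8 had a p under the threshold. Those 8 include the exact permutation tests, likewise not adjusted over genes, of Pnlip, Ano3, Tmem182 and Epsti1. Krt19 changed sign to -0.37 with the meningeal covariate, with no call either way. The 12 values with other prior counts in each contrast, which had no test, kept their sign. The causes were not tested.

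Values past the threshold against Ctrl ALBSF were, with DESeq2, Krt19 at -3.28 (adjusted p 0.00561), Ano3 at -1.18 (0.0105), Tpd52l1 at 0.82 (0.0155) and Epsti1 at 1.05 (0.0467). Without a count filter they were Krt19 at -3.25 (3.28e-05) and Tpd52l1 at 0.82 (0.00509). Against Ctrl PMBSF they were, with DESeq2, Pnlip at 1.49 (0.0101) and Tpd52l1 at -0.79 (0.0424), and without a filter Pnlip at 1.48 (0.0344) and Tpd52l1 at -0.79 (0.0126). Exact permutation tests, not adjusted over genes, gave 0.0286 for Krt19 (-3.33), Ano3 (-1.12), Tpd52l1 (0.82) and Epsti1 (1.01) against Ctrl ALBSF, and for Pnlip (1.33), Ano3 (0.85), Tmem182 (-0.99) and Epsti1 (-0.51) against Ctrl PMBSF. With 1 library left out, Krt19 against Ctrl ALBSF ran from -3.73 to -2.61.

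Genes called between the controls numbered 284, and 507 with DESeq2, 461 with voom, 115 with the meningeal covariate and 127 to 282 with 1 library left out. The replicate block, which pairs the control libraries by number, called 857. Leaving out both second control pools, chosen after seeing the data, gave 104 calls between the controls, 536 with the replicate block, and 3 against Ctrl PMBSF, and none of the 6 genes was called against either group (lowest adjusted p 0.206 and 0.264). Against Ctrl ALBSF the 11 calls became 175 with DESeq2, 121 without a filter, 78 with voom, 17 with the covariate and 1 to 37 with 1 library left out. Against Ctrl PMBSF the 1 call became 71, 72 without a filter, 0 with the covariate and 1 to 3 with 1 library left out. With the replicate block these contrasts called 1 and 0 genes, their numbers not pairing the libraries, and it called none of the 6 genes there (lowest adjusted p 0.0955 and 0.540). Leaving out Ctrl ALBSF library 2, 3 or 4 or Ctrl PMBSF library 2 took the control count to 160, 127, 155 and 163. The count against Ctrl ALBSF became 22, 4, 1 and 3 without Ctrl ALBSF library 1, 2, 3 or 4, 37 and 4 without Ctrl PMBSF library 1 or 4, and 2 and 1 without embWPC ALBSF library 1 or 3. That against Ctrl PMBSF became 2 without Ctrl ALBSF library 2 and 3 without Ctrl PMBSF library 1. Pnlip, Ano3 and Epsti1 had between 9 and 96 counts per library, which limits how small a difference could be seen.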
